A study of Mus musculus with 2 samples.

Results

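The BAF complex is an ATP-dependent chromatin remodeler, and the form found in ES cells (esBAF) was examined here through the transcripts of 10 of its subunits. *Smarca4*, *Smarca2*, *Smarcb1*, *Smarcc1*, *Smarcc2*, *Smarcd1*, *Smarce1*, *Arid1a*, *Arid1b* and *Actl6a* were taken by gene symbol from the 21935 symbols measured, and all 10 were found. The libraries came from R1 ES cells, a mouse ES cell line, kept for 72 h in medium lacking LIF, a cytokine used to hold ES cells undifferentiated. Both cultures carried a lentiviral short hairpin RNA (shRNA) and were selected with puromycin as stably transduced cells: shKdm5b ES cells carried an shRNA against *Kdm5b*, which encodes an H3K4 demethylase, and the control shLuc ES cells an shRNA against luciferase. Stocks of these cells were grown on irradiated fibroblast feeders, and the labels describe differentiation in low-attachment dishes. Polyadenylated RNA was sequenced from 1 library per condition, so no difference below has a replicate check, and library and condition cannot be told apart.

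BAF complexes slide or evict nucleosomes with the energy of ATP and are assembled from families of paralogous subunits. In ES cells the complex is known for the ATPase BRG1 (*Smarca4*) with BAF155 (*Smarcc1*) and BAF250A (*Arid1a*), and for little BRM (*Smarca2*) or BAF170 (*Smarcc2*). On the way to neurons, several subunits are exchanged for paralogs, among them BAF53A (*Actl6a*) for BAF53B (*Actl6b*) and BAF45A (*Phf10*) for BAF45B (*Dpf1*) and BAF45C (*Dpf3*).

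Levels are given as RPKM, the reads on a transcript per kilobase of its length, scaled to library size, and compare genes per length. Differences are log2 ratios of shKdm5b to shLuc, taken on log2(RPKM + 0.1). Their 95% intervals are exact Clopper-Pearson intervals on the split of a gene's reads between the libraries and cover counting error only. The targeted gene, *Kdm5b*, had an RPKM of 104 in shLuc and 3.01 in shKdm5b ES cells, or 2.88% of the control level. The RPKM values rest on 78172698 aligned reads for shLuc and 72702698 for shKdm5b ES cells. Of these alignments, 32.9% and 20.1%, respectively, had a distinct start and strand, and the remainder repeated a start. The shKdm5b library thus held fewer distinct fragments per read. When the read counts of each gene and the library totals were multiplied by these shares, 9 of 10 members still had an interval that excluded 0. With all reads the number was the same. Such a step leaves the ratio nearly unchanged and only widens the interval, so it does not examine repeated starts within a gene. The like share over all genes is not given here. ES cell markers were present in both libraries, with *Pou5f1* at an RPKM of 619 and 182 and *Sox2* at 237 and 272, and 7 of 8 listed ES cell markers were matched, all with RPKM above 1. Of these 7, *Pou5f1* (log2 ratio -1.76) and *Esrrb* (-0.96) were called lower and 0 higher by the thresholds given below. Of all genes with RPKM above 1, 32.0% were called lower and 16.3% higher. After the correction for GC content described below, *Pou5f1* was at -1.03, past 1.5-fold, and *Esrrb* at -0.31, inside it. The part of these ES cell markers in the esBAF differences was not tested. Of 10 fibroblast markers, 1 (*Thy1*) had an RPKM above 1, the 10 summed to an RPKM of 5.66 in shLuc and 6.5 in shKdm5b ES cells, and the collagen genes *Col1a1*, *Col1a2* and *Col3a1* were below 0.5.

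In the deposited values 9 esBAF transcripts had a lower RPKM in shKdm5b ES cells and *Smarce1* a higher one, although *Actl6a* and *Smarca2* changed sign when the libraries were scaled in other ways. The counting interval of *Smarca2*, for the entry used, also included 0. A gene was called when it differed by more than 1.5-fold and had an RPKM above 1 in at least 1 library. By these thresholds 4 of the 9 members with RPKM above 1 were lower (44.4%), namely *Smarcd1*, *Smarcb1*, *Smarcc2* and *Smarcc1*, and 0 were higher. Among all 11804 genes with RPKM above 1, 32.0% were called lower, 16.3% higher and 48.3% in either direction. The median log2 ratio was -0.58 over the 9 members and -0.21 over all these genes. With 9 members the difference between 44.4% and 32.0% amounts to about 1 gene. After scaling by TMM, a trimmed mean of ratios between the libraries, 2 members were called lower and 0 higher. Of all genes, 23.1% were then lower and 24.1% higher. TMM centres the ratios, so near-equal shares over all genes follow from the method. The part of scaling in the excess of lower genes was not tested.

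**Figure D1:**
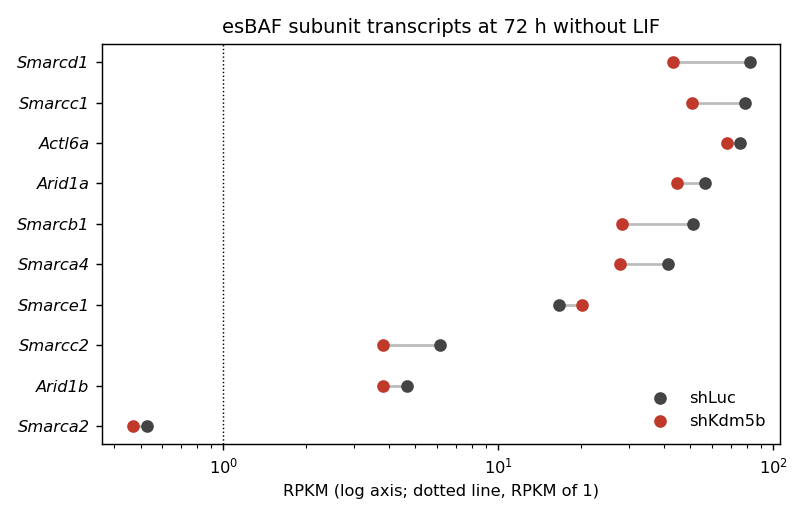
RPKM of the 10 esBAF subunit transcripts (log axis) in the shLuc library (grey) and the shKdm5b library (red), with 1 library per point. *Smarca2* lies below an RPKM of 1 in both libraries, and *Smarce1* is the member whose red point lies to the right (RPKM 16.7 and 20.2).

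The ATPase of esBAF is BRG1. *Smarca4*, which encodes it, had an RPKM of 41.5 (20649 reads) in shLuc and 27.7 (12826 reads) in shKdm5b ES cells. The shKdm5b level was 66.8% of control, just inside the 1.5-fold threshold at 66.7%, with a log2 ratio of -0.58 (95% counting interval -0.61 to -0.55). The 3 RefSeq entries of *Smarca4* gave the same log2 ratio. *Smarca2*, which encodes the alternative ATPase BRM, was the lowest member, with an RPKM of 0.528 (81 reads) in shLuc and 0.47 (67 reads) in shKdm5b ES cells. Its log2 ratio was -0.14 (-0.66 to 0.32), so for this entry a difference was not detectable at this depth. These values belong to the shorter of the 2 *Smarca2* entries, 1962 bases long, of which 85.8% of the 50-base words lie within the last part of the long transcript, from base 4232 of 5921. The long entry had an RPKM of 0.308 (140 reads) and 0.194 (82 reads), a log2 ratio of -0.47 (-1.08 to -0.26) whose interval excluded 0, and shares reads with the short entry. Whether *Smarca2* differed beyond counting error thus depended on the entry taken.

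In the deposited values the largest differences were those of *Smarcd1*, *Smarcb1*, *Smarcc2* and *Smarcc1*. After the GC correction the largest was that of *Smarce1*, at 0.62. *Smarcb1*, which encodes BAF47 (SNF5), had an RPKM of 50.9 (6490 reads) in shLuc and 28.2 (3337 reads) in shKdm5b ES cells, a log2 ratio of -0.85 (-0.92 to -0.79). *Smarcd1*, which encodes BAF60A, a subunit that contacts transcription factors, had an RPKM of 82.1 (20241 reads) and 43.3 (9927 reads), a log2 ratio of -0.92 (-0.96 to -0.89). It was the most abundant member in the control and the 4th in shKdm5b ES cells. *Smarcc1*, which encodes the scaffold BAF155, had an RPKM of 78.9 (34992 reads) and 50.6 (20882 reads), a log2 ratio of -0.64 (-0.66 to -0.62). Its paralog *Smarcc2* (BAF170) was far less abundant but differed by a like amount, with an RPKM of 6.15 (2209 reads) and 3.81 (1271 reads) and a log2 ratio of -0.68 (-0.79 to -0.59). The 3 *Smarcc2* entries and the 2 *Smarcb1* entries gave log2 ratios equal to 2 decimals within each gene.

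*Smarce1*, which encodes the HMG-box subunit BAF57, went the other way, with an RPKM of 16.7 (3804 reads) in shLuc and 20.2 (4292 reads) in shKdm5b ES cells, a log2 ratio of 0.28 (0.22 to 0.34). This value is uncertain, because 35.1% of the 50-base words of its transcript, the length of the reads, also occur in transcripts of 5 other genes in GENCODE M21, the largest shares being 24.7% with Gm8494 and 20% with *Smarce1-ps1*. How far reads were exchanged with these copies was not tested.

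The ARID1 subunits, which bind DNA and define the canonical BAF form, differed less. *Arid1a* (BAF250A) had an RPKM of 56.4 (36072 reads) in shLuc and 44.8 (26615 reads) in shKdm5b ES cells, a log2 ratio of -0.33 (-0.36 to -0.31). *Arid1b* (BAF250B) had an RPKM of 4.66 (4123 reads) and 3.81 (3139 reads), a log2 ratio of -0.28 (-0.36 to -0.22). Both lie near the median of all genes, -0.21. *Actl6a*, which encodes the actin-related subunit BAF53A, was the closest to control among the members with RPKM above 1, with an RPKM of 75.7 (11651 reads) and 68.2 (9770 reads) and a log2 ratio of -0.15 (-0.19 to -0.11). On the opposite strand, 20.6% of its 50-base words occur in transcripts of *Mrpl47*, a mitochondrial ribosomal protein gene with an RPKM of 19.8 and 45.2 (log2 ratio 1.19). The sources used here do not state that strand was kept, so reads of these overlapping ends cannot be told apart. The other members share at most 9.7% of such words with other genes, the highest value being that of *Smarcd1*, whose matches lie on the opposite strand of Gm17349 and Gm34939.

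The broad order of the members was alike in both libraries. *Smarcd1*, *Smarcc1*, *Actl6a*, *Arid1a*, *Smarcb1* and *Smarca4* had RPKM values from 41.5 to 82.1 in shLuc and from 27.7 to 68.2 in shKdm5b ES cells. *Smarce1* lay between, *Smarcc2* and *Arid1b* had RPKM values from 3.81 to 6.15, and *Smarca2* was last. Among the 6 most abundant members the order differed, with *Smarcd1* first in the control and *Actl6a* first in shKdm5b ES cells. Neighbours in the shKdm5b order such as *Smarcb1* (28.2) and *Smarca4* (27.7), or *Arid1b* and *Smarcc2* (both 3.81), are too close to be ranked without replicates.

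The size of these differences moved with GC content and with how the libraries were scaled. Across 11535 genes with RPKM above 1, the log2 ratio was lower at higher GC content of the transcript (Spearman correlation -0.53, across genes that are not independent replicates). The 9 members with RPKM above 1 had a GC content from 48.5% (*Smarcc1*) to 57.2% (*Smarcd1*), where the median over these genes was 50.5%. Over the 10 members the Spearman correlation of GC content with the log2 ratio was -0.62, a description of points that share both libraries. After a lowess curve on GC content was taken out, a step that also centres the libraries, the median over the members was -0.01, and 0 were called lower and 1, *Smarce1* (log2 ratio 0.62), higher. The same correction left 17.8% of all genes lower and 19.0% higher. *Smarcc1* was at -0.54, inside the 1.5-fold threshold, and at -0.35 when transcript length was taken out as well. *Smarcb1* was at -0.23, *Smarcd1* at -0.20 and *Smarcc2* at -0.19. *Arid1a* (0.35), *Arid1b* (0.14) and *Smarca4* (0.11) changed sign. The part of GC content in the difference of any member was not tested. Scaling by TMM, which moved the median of all genes from -0.21 to 0.01 without regard to GC content, left *Smarcd1* (-0.70) and *Smarcb1* (-0.63) past 1.5-fold and took *Smarcc1* (-0.42) and *Smarcc2* (-0.46) inside it. *Actl6a* changed sign under TMM scaling, at 0.07.

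**Figure D2:**
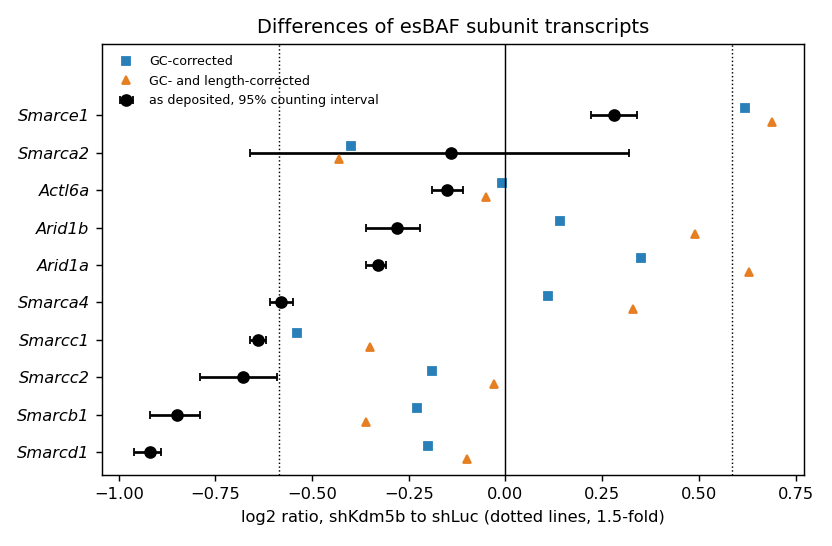
log2 ratios of the 10 esBAF transcripts as deposited (black, with 95% counting intervals), after the GC correction (blue) and after the GC and length correction (orange). The black points of *Smarcd1*, *Smarcb1*, *Smarcc2* and *Smarcc1* lie past the lower 1.5-fold line, and no blue point does.

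**Figure D3:**
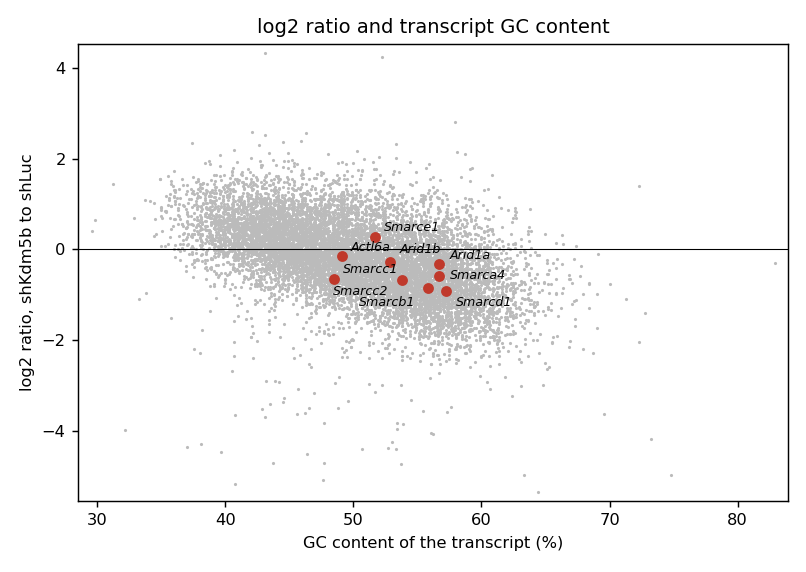
log2 ratio against transcript GC content for 11535 genes with RPKM above 1 (grey), with the 9 esBAF members of that level in red. The cloud slopes downward (Spearman correlation -0.53), and *Smarce1* is the red point above 0.

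Whether the ES forms gave way to other paralogs was examined through the ratio of the paralogs within each library, which does not depend on library size. Such a ratio needs reads that tell the paralogs apart. For each pair, 0 words of 50 bases were shared by both transcripts of GENCODE M21, the longest stretch in common being 29 bases. The stretches that follow are the longest runs shared by the named transcripts, with every base in common, and each is shorter than a read.

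*Smarcc1* and *Smarcc2*: caaatgaagaaactagagatcaaact
*Actl6a* and *Actl6b*: tcattcctccttacatgattgca
*Smarcd1* and *Smarcd3*: gaagatggctgacaaaatcct
*Smarca4* and *Smarca2* (long entry): atgttggccaggggccagcc

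In the ATPase, scaffold and ARID1 pairs the ES form was the more abundant in both libraries. *Smarca4* exceeded *Smarca2* 78.6-fold in shLuc and 59-fold in shKdm5b ES cells by RPKM. The log2 of the shKdm5b ratio over the shLuc ratio, taken on reads with an exact conditional interval, was -0.41 (-0.90 to 0.08). Against the long *Smarca2* entry the ratios were 135 and 143, a log2 difference of 0.08 (-0.32 to 0.50), so neither the size of the ratio nor the sign of the difference was independent of the entry. *Smarcc1* exceeded *Smarcc2* 12.8-fold and 13.3-fold, a log2 difference of 0.05 (-0.05 to 0.16). *Arid1a* exceeded *Arid1b* 12.1-fold and 11.7-fold, a log2 difference of -0.05 (-0.12 to 0.03). These intervals bound the counting error alone. After the GC correction the log2 differences of the 3 pairs, with the short *Smarca2* entry, were 0.51, -0.35 and 0.22, so that each of the 3 changed sign.

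The BAF60 pairs differed. *Smarcd2* (BAF60B), with an RPKM of 17.1 in shLuc and 12.6 in shKdm5b ES cells, was lower to a lesser degree than *Smarcd1*. The ratio of *Smarcd1* to *Smarcd2* was 4.81 in the control and 3.44 in shKdm5b ES cells, a log2 difference of -0.49 (-0.57 to -0.40) that was -0.29 after the GC correction. *Smarcd3* (BAF60C), the form of heart and neural tissue, had an RPKM of 0.875 (118 reads) and 0.797 (100 reads). Against it the *Smarcd1* ratio was 93.8 and 54.3, a log2 difference of -0.79 (-1.19 to -0.39), or -0.81 after the GC correction. In both pairs *Smarcd1* was lower by more than its paralog.

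The neuronal forms were scarce, and the clearest difference was that of *Dpf1*. It encodes BAF45B and had an RPKM of 4.76 (847 reads) in shLuc and 1.43 (237 reads) in shKdm5b ES cells, a log2 ratio of -1.67 (-1.95 to -1.52). After the GC correction the log2 ratio was -0.90, still past 1.5-fold. Its counterparts in ES and progenitor cells were close to control, *Phf10* with an RPKM of 29.8 and 28.2 and *Dpf2* (BAF45D) with 25.5 and 24.2. The ratio of *Phf10* to *Dpf1* was therefore 6.26 in shLuc and 19.7 in shKdm5b ES cells, a log2 difference of 1.65 (1.43 to 1.88), or 0.91 after the GC correction. For *Dpf2* over *Dpf1* the log2 difference was 1.66 (1.44 to 1.88). *Dpf3* had 10 and 17 reads, and *Actl6b* had 4 reads in shLuc and 0 in shKdm5b ES cells, where 3 reads would be an RPKM of 0.0267. For *Dpf3* and *Actl6b* no difference was detectable at this depth. *Ss18l1* (CREST) had an RPKM of 1.64 (560 reads) and 2.51 (796 reads), and its ES counterpart *Ss18* had 33.2 (7193 reads) and 50.4 (10178 reads). Both were higher by like amounts, with log2 ratios of 0.58 and 0.60, so that *Ss18* exceeded *Ss18l1* 20.2-fold and 20.1-fold.

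**Figure D4:**
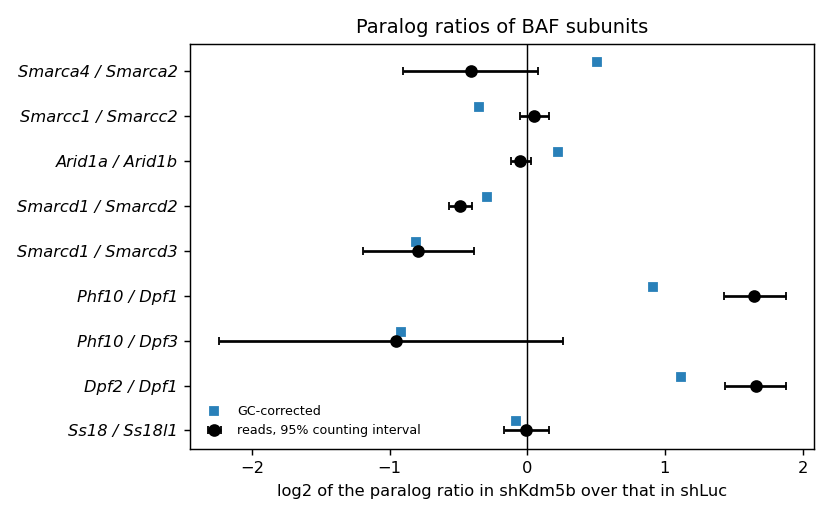
log2 of the paralog ratio in shKdm5b ES cells over that in shLuc ES cells for 9 pairs (black, reads with 95% counting intervals; blue, GC-corrected). The *Dpf1* pairs lie at 1.65 and 1.66, the *Smarcd1* pairs below 0, and the scaffold, ARID1 and SS18 pairs at 0.05, -0.05 and -0.01. *Actl6a* over *Actl6b* is left out because *Actl6b* had 0 reads in shKdm5b ES cells.

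Neural marker genes did not move in a single direction beside these paralogs. Of 14 listed, 13 were matched and 6 had an RPKM above 1. *Nes* (RPKM 1.78 and 3.24) and *Neurod1* (2.91 and 7.36) were called higher, and *Tubb3* (36.4 and 14) and *Syp* (2 and 1.08) lower. Over all genes, 16.3% were called higher and 32.0% lower. After the GC correction the log2 ratios were 1.42 for *Nes*, 1.21 for *Sox1*, 1.04 for *Neurod1* and 0.49 for *Pax6*. Those of *Syp* and *Tubb3* were then -0.19 and -0.62. *Syp* was thus inside 1.5-fold and *Sox1* past it. The median of the 6 genes went from 0.33 to 0.77. The list summed to an RPKM of 47.9 in shLuc and 32.4 in shKdm5b ES cells, most of it *Tubb3* in the control, while *Dcx* had 2 and 0 reads and *Neurog2* 1 and 0. In bulk RNA, fewer cells of a type and less RNA per cell cannot be told apart, and the part of cell composition in the *Dpf1* difference was not tested.

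The remaining subunits listed here with canonical BAF, outside the 10 members and with *Phf10* placed among them, were mostly within 1.5-fold. Of 10, all matched, 9 had an RPKM above 1, of which 2 were called higher and 0 lower, beside 16.3% and 32.0% of all genes, with a median log2 ratio of -0.08 that became 0.14 under TMM scaling. The called genes were *Ss18*, above, and *Bcl11a*, a zinc finger subunit, with an RPKM of 3.51 and 6.04 (log2 ratio 0.77). Both remained past 1.5-fold after the GC correction, at 0.65 and 0.81. *Bcl7c* was the lowest at -0.58. The subunits of the polybromo form (PBAF) and of the non-canonical form also stayed within 1.5-fold, 5 of 5 with RPKM above 1, from -0.51 (*Brd9*) to 0.43 (*Brd7*). Of all genes, 48.3% were called in either direction, and 5 genes are too few to set against that share. *Pbrm1* (RPKM 23.3 and 25.4) and *Arid2* (20.8 and 20.8), which distinguish PBAF from BAF, were close to control. After the GC correction, which moves these medians as well, the other canonical subunits had a median of 0.54 and the PBAF and non-canonical subunits one of -0.11.

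Beside another remodeler of ES cells, NuRD, the esBAF members had a narrower range of log2 ratios, but NuRD is the longer list. The range of the PBAF and non-canonical subunits, -0.51 to 0.43, was narrower than that of esBAF. All 15 NuRD genes had an RPKM above 1, of which 7 were lower and 3 higher, beside 32.0% and 16.3% of all genes. Their median log2 ratio was -0.44, or 0.14 after the GC correction. The range was from -1.30 to 1.31 over these 15 genes, against -0.92 to 0.28 over the 9 esBAF members with RPKM above 1. *Chd4*, the main NuRD ATPase in ES cells, had an RPKM of 75.6 and 33.6 (log2 ratio -1.17), a larger difference than that of *Smarca4*, and remained past 1.5-fold after the GC correction at -0.73, but not after the GC and length correction at -0.51. The difference between the lists was not tested, since genes are not replicates of a condition.

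**Figure D5:**
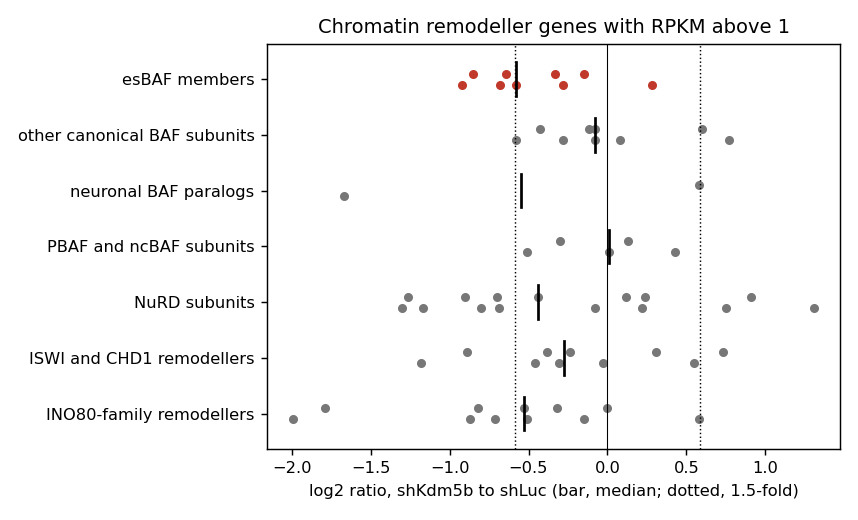
log2 ratios of genes with RPKM above 1 in 7 groups of chromatin remodeler genes (points; black bars, medians; dotted lines, 1.5-fold). The esBAF members (red) run from -0.92 to 0.28 with a median of -0.58, and the other canonical BAF subunits have a median of -0.08. *Actl6a* belongs to both the esBAF and the INO80-family groups.

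The promoters of *Smarcd1* and *Smarcb1*, the members with the largest differences in the deposited values, are shown. They are given so that the bases before the start sites of these members can be read. After the GC correction the log2 ratios were -0.20 for *Smarcd1* and -0.23 for *Smarcb1*. The part of the promoters in these differences was not tested. The sequences are the 250 bases before the start site in RefSeq on GRCm38.p6, 5′ to 3′ on the strand of the gene, and capitals mark GGGCGG or its complement CCGCCC, the SP/KLF motif. The deposited alignments are on mm8, so these positions describe the genes and not the alignments. *Smarcd1* is at chr15:99702037-99702286 on the plus strand and *Smarcb1* at chr10:75921615-75921864 on the minus strand.

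*Smarcd1*: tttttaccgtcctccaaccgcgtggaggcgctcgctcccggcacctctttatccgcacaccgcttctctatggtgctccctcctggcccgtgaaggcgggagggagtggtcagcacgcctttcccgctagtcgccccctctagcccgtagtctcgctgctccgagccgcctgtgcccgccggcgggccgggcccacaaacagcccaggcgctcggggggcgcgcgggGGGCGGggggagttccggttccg
*Smarcb1*: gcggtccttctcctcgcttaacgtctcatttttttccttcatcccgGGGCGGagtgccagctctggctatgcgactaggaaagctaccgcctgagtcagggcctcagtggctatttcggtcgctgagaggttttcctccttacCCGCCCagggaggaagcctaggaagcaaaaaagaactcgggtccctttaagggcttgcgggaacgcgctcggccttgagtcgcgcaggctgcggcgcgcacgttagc

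The *Smarcd1* window holds 1 such match among 29 CpG dinucleotides, and the *Smarcb1* window 2 among 21. Windows were found for 9 of 10 members, and no window of *Smarce1* was found. Of these 9 genes, 8 held GGGCGG on either strand in the first window listed for the gene, where 32.7% of all 32851 windows held it. These shares are not matched for base composition, since the member windows had a GC content from 59.6% to 81.6% and from 18 to 40 CpG dinucleotides, and the medians over all windows were 52.4% and 6. The ETS motif CCGGAAG was in 2 (6.91% of all windows), the NRF1 motif in 2 (4.98%), CCAAT in 0 (33.8%) and TATAAA in 0 (12.4%). *Smarcc2*, which was called lower, was the gene of these 9 without GGGCGG, and *Actl6a*, close to control, held it 3 times.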

How the data were processed

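Polyadenylated RNA was sequenced from 1 library of shLuc and 1 of shKdm5b ES cells, with groups taken from the sample labels. The authors deposited, for each of 27405 RefSeq entries, an RPKM value, a read count in whole numbers and a transcript length, and also the aligned reads as intervals of 50 bases. The submitters' processing notes name CASAVA 1.0, Bowtie 0.12.7 and mm8. The counting program is not given in the sources used here. A further column of small whole numbers was not used, since nothing states its meaning.

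Members and lists were chosen with earlier results of these data known. Where a symbol had several entries, that of highest mean RPKM stood for it. Calls required a fold change above 1.5 on log2(RPKM + 0.1) with either library above an RPKM of 1. With 1 library per condition no replicated test could be made. Alternatives were pseudocounts of 0.01 and 1, TMM, median-of-ratios (DESeq2 1.42.0) and 75th percentile scaling, summed entries, other thresholds, an exact test in edgeR 4.0.16 (R 4.3.3) across all genes at assumed dispersions of 0 and 0.04 with FDR below 0.001, and lowess corrections (fraction 0.3, statsmodels 0.14.6) for GC content and then length. GC content came from the GENCODE M21 (GRCm38) transcript of the same accession. The steps were tested on simulated reads with counting noise and a set of changed genes. These reads had no trend with GC content and no repeated starts, so they do not check the handling of either. Genes named in the text are the members, the genes of the paralog pairs, the called genes of the other BAF, PBAF and non-canonical lists, the ATPases and at most 2 genes at each extreme of the other remodeler lists, and *Kdm5b*. *Bcl7c*, *Brd7*, *Brd9*, *Pbrm1*, *Arid2*, *Mrpl47*, the pseudogenes and the marker genes were named after their values were seen. Reads carry no molecular identifiers, so intervals cover counting error only. Other software was Python 3.11.15, pandas 2.3.3, NumPy 2.4.6, SciPy 1.17.1 and matplotlib 3.10.9.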

Additional observations from a re-analysis of the deposited data

How the results depend on the processing

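No paired analysis was possible because only 1 library was sequenced of each kind, and none could be left out. Recounting the alignments over the members was not run, since the tables give no gene coordinates on mm8. Of 10 members 4 were past the thresholds (4 lower), and the number stayed at 3 or 4, all lower, under both other pseudocounts, summed entries, RPKM above 1 in both libraries, no minimum RPKM, RPKM above 11 and the exact test at dispersion 0. The pseudocounts of 0.01 and 1 and summed entries called 32.7%, 26.5% and 32.3% of all genes lower. The exact test at dispersion 0 kept 5545 of the 5702 genes past the thresholds, so it removed few. Shares over all genes are not given here for the other RPKM minimums. The number of members past the thresholds also changed under other settings. It was 2 (both lower) under each of the TMM, median-of-ratios and 75th percentile scalings, which called 23.1%, 22.6% and 24.3% of all genes lower, so that 2 of 9 is near the background. It was 1 (higher) after the GC correction, 2 (both higher, *Smarce1* and *Arid1a*) after the GC and length correction, which called 15.5% of all genes higher, and 0 with a fold change above 2 and with the exact test at dispersion 0.04, at which 284 of all genes remained.

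The median over the members, -0.58, was -0.36, -0.34 and -0.39 under the TMM, median-of-ratios and 75th percentile scalings, -0.01 with GC content taken out and -0.03 with GC content and length taken out. Other medians changed sign. That of the other canonical BAF subunits, -0.08, became 0.14, 0.16 and 0.11 under these scalings and 0.54 and 0.35 after the corrections. That of the PBAF and non-canonical subunits, 0.01, became -0.11 after the GC correction. That of NuRD, -0.44, became 0.14 and 0.20 after the corrections, and that of the ISWI and CHD1 genes, -0.28, became 0.15 after the GC and length correction. That of the ES cell markers, -0.12, became 0.09, 0.11 and 0.07 under the scalings. The scalings raise all log2 ratios by about the same amount; the cause of the other changes was not tested. The multiplication of read counts by the shares of distinct starts and the use of the long *Smarca2* entry were chosen after seeing the data.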

Other observations

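Other ATP-dependent remodelers were read beside esBAF. Of 10 ISWI and CHD1 genes, all with RPKM above 1, 1 was called higher and 2 lower, beside 16.3% and 32.0% of all genes. The higher gene was *Smarca5*, the ISWI ATPase SNF2H, with an RPKM of 55.1 (19965 reads) in shLuc and 91.2 (30759 reads) in shKdm5b ES cells, a log2 ratio of 0.73 that was 0.29 after the GC correction. *Smarca4* had an RPKM of 41.5 and 27.7, and its log2 ratio after the GC correction was 0.11. *Chd2*, a CHD-family ATPase, was lower, with an RPKM of 7.98 and 3.48 and a log2 ratio of -1.18 that was -1.13 after the GC correction. *Baz1b*, an ISWI partner, had a log2 ratio of -0.89 and *Chd1* one of 0.31.

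Of 11 matched INO80-family genes, 5 were called lower and 0 higher, beside 32.0% and 16.3% of all genes. Their median log2 ratio was -0.53 in the deposited values. This median was -0.13 once GC content was corrected for, and -0.07 once transcript length was corrected for as well. *Ino80b* (RPKM 8.66 and 2.11, log2 ratio -1.99) and *Actr5* (6.99 and 1.96, log2 ratio -1.79), both INO80 subunits, had the largest differences and remained past 1.5-fold after the GC correction, at -1.02 and -0.94. The ATPase genes *Ino80* (19.4 and 10.9, log2 ratio -0.82) and *Ep400* (9.71 and 5.89, log2 ratio -0.71) were lower in the deposited values. After the GC correction *Ino80* was at -0.69, past 1.5-fold, and *Ep400* at -0.32, inside it. After the GC and length correction both were inside it, at -0.48 and 0.02. *Yeats4* had the highest value of the list, with an RPKM of 38.7 and 58 and a log2 ratio of 0.58.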
